A study of Homo sapiens with 8 samples.

Results

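The BH3-only death activators are 7 genes, BMF, BBC3, PMAIP1, BCL2L11, BID, BAD and BIK, taken by their symbols from the 16295 genes of the deposited expression table. Each symbol had 1 row, and all 7 were among the 14164 genes that passed the filter on low counts. Expression was measured by RNA-seq in MM1.S cells, an established human multiple myeloma cell line, after 24 h with 0.5 uM of MS177, MS177N1 or C24, or with the solvent DMSO. Each of the 4 groups had 2 libraries of this 1 cell line, and the labels name no genetic change in any group. As background, MS177 is a degrader of EZH2, the histone methyltransferase of the Polycomb complex PRC2, and works through CRBN, a substrate receptor of a ubiquitin ligase. C24 inhibits EZH2, and MS177N1 serves as the control compound without degrader activity. Nothing in the labels says that the 2 libraries of a group are from different cultures, and the spread behind each p-value may therefore be technical.

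BH3-only proteins carry a single short helix, the BH3 domain, with which they bind the groove of the BCL2 family. They set off the mitochondrial route of apoptosis in either of 2 ways: the direct activators BIM, BID and PUMA can open the pore-forming effectors BAX and BAK, while sensitizers such as NOXA, BMF, BAD and BIK occupy the guardians BCL2, BCL-XL and MCL1. Myeloma cells are known to depend on MCL1, which holds BIM in check. Several of these proteins are controlled by transcription (PUMA, NOXA, BMF, BIM), others mainly after translation (BID by cleavage, BAD by phosphorylation).

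The libraries held 20000665 to 26619099 reads in listed genes. EZH2 mRNA stood at 2819 and 2881 normalized reads with MS177, 2720 and 2723 with MS177N1, 2713 and 2665 with C24, and 2676 and 2687 with DMSO. These compounds act on the protein, so that mRNA is no check of the labels. All 10 plasma-cell and myeloma markers were listed, with summed levels of 127298 to 129600 normalized reads with MS177 and 203233 to 203290 with DMSO. SDC1, the plasma-cell surface marker CD138, gave 12569 and 12278 normalized reads with MS177 and 28444 and 29160 with DMSO.

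MS177 changed every one of the 7 transcripts relative to DMSO: 5 rose and 2 fell. BBC3, BMF and PMAIP1 rose 7.22-fold, 4.86-fold and 3.57-fold, BIK, with few reads, rose 2.42-fold, and BCL2L11 rose 1.49-fold, while BID and BAD fell 1.35-fold and 1.27-fold (n = 2 libraries per group). Over all 14164 genes tested, limma called 28.9% higher and 29.0% lower in this comparison at a Benjamini-Hochberg adjusted p under 0.05. Calls were thus frequent among all genes, and the median log2 fold change was 1.28 over the 7 members and 0.00 over all genes tested. The member median is the value of BIK, which had few reads. The median was 0.549 on the deposited log2 values, where BIK itself was at 0.437. With single libraries left out the median lay between 1.04 and 1.51. The members were chosen with earlier results of these data known. In the order of log2 fold change over all genes, 1.86% of genes lay above BBC3, 2.88% above BMF, 4.41% above PMAIP1, 7.95% above BIK and 20.9% above BCL2L11. On the other side, 21.5% of genes lay below BID and 26.5% below BAD. With MS177N1 or C24, no member was called against DMSO.

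**Figure D1:**
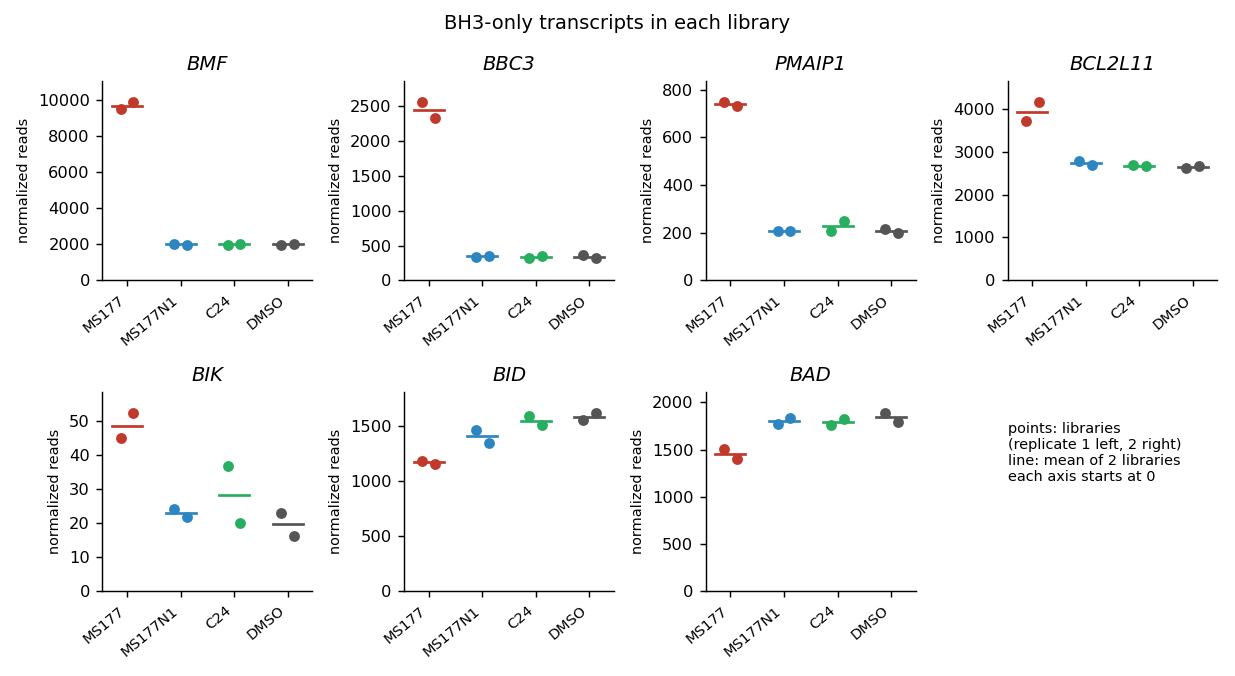
Normalized reads (y axis, reads divided by the library's size factor, starting at 0) of each BH3-only transcript in the 8 libraries; points are libraries and lines are means of 2. For BMF, BBC3, PMAIP1, BCL2L11 and BIK both MS177 libraries lie above the other 6, and for BID and BAD both lie below them.

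Among the direct activators, BBC3, which encodes PUMA and is known as a target of stress-responsive transcription factors, changed most. Its level was 2559 and 2331 normalized reads with MS177, 336 and 352 with MS177N1, 315 and 348 with C24, and 359 and 317 with DMSO. The MS177 libraries stood far above the other 6, whose 3 groups overlapped one another. The log2 fold change of MS177 against DMSO was 2.85 (SE 0.10, limma adjusted p = 2.84e-12).

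BCL2L11, which encodes BIM and is known as a target of FOXO factors, had 3709 and 4153 normalized reads with MS177, 2779 and 2691 with MS177N1, 2686 and 2670 with C24, and 2620 and 2668 with DMSO. Both MS177 libraries were higher than any other library, and the 2 MS177 libraries differed from each other by more than the other 6 did. MS177 against DMSO gave a log2 fold change of 0.57 (SE 0.06, limma adjusted p = 5.37e-07). In the GENCODE annotation 727 of its 6658 exonic bases, 10.9%, are shared with the opposite-strand gene MIR4435-2HG. The labels give no strand setting for the counting, so reads of the shared bases cannot be assigned to one gene.

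BID, which is activated when caspase-8 cleaves it and so links death receptors to mitochondria, had 1182 and 1155 normalized reads with MS177, 1461 and 1347 with MS177N1, 1587 and 1505 with C24, and 1548 and 1614 with DMSO. The MS177 libraries were the lowest pair, and MS177N1 replicate 2 was the nearest to them. The log2 fold change of MS177 against DMSO was -0.44 (SE 0.07, limma adjusted p = 3.98e-05). Of the 7 members, BID alone had an unadjusted p under 0.05 for MS177N1 against DMSO (0.0210), with a log2 fold change of -0.17 and an adjusted p of 0.965. Among the 14164 genes tested, 718 had an unadjusted limma p under 0.05 in this comparison. The MS177N1 libraries of BID, 1461 and 1347 normalized reads, did not overlap its DMSO libraries, 1548 and 1614. Nor did those of BCL2L11, at 2779 and 2691 with MS177N1 and 2620 and 2668 with DMSO, in the other direction. How many of all genes show such a separation was not counted, so it does not set BID apart.

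Among the sensitizers, BMF had the highest read level with MS177. BMF protein is known to be held at the cytoskeleton by dynein light chains until stress frees it. The transcript gave 9512 and 9888 normalized reads with MS177, 2046 and 1947 with MS177N1, 1986 and 2038 with C24, and 1969 and 2018 with DMSO. The other 6 libraries lay within 1947 to 2046 normalized reads with overlapping groups, far below both MS177 libraries. The log2 fold change was 2.28 (SE 0.05, limma adjusted p = 3.14e-14). Of its 5447 exonic bases 461 (8.46%) are shared with BMF-AS1 on the opposite strand.

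PMAIP1 encodes NOXA, which binds chiefly MCL1 and is induced by ATF4. It had 747 and 732 normalized reads with MS177, 209 and 207 with MS177N1, 205 and 249 with C24, and 217 and 197 with DMSO. The highest library without MS177 was C24 replicate 2, well below both MS177 libraries. This was a log2 fold change of 1.83 (SE 0.12, limma adjusted p = 4.25e-09).

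BAD, whose protein binds BCL2 and BCL-XL and is kept inactive by phosphorylation and 14-3-3 proteins, was lower with MS177. Its level was 1505 and 1395 normalized reads with MS177, 1768 and 1835 with MS177N1, 1761 and 1824 with C24, and 1888 and 1798 with DMSO. The 2 MS177 libraries were the lowest of the 8, and the other 3 groups overlapped one another. Against DMSO its log2 fold change was -0.35 (SE 0.06, limma adjusted p = 0.000208). BAD shares 404 of its 1708 exonic bases (23.7%) with GPR137 on the opposite strand, a gene at 743 normalized reads with MS177 and 839 with DMSO, so part of this level is uncertain.

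BIK, a sensitizer at the endoplasmic reticulum, was near the limit of this depth. It had 42 and 56 reads with MS177, 23 and 24 with MS177N1, 43 and 18 with C24, and 21 and 17 with DMSO, or 45.0 and 52.4, 24.1 and 21.8, 36.8 and 19.9, and 23.1 and 16.3 normalized reads in the same order. MS177 libraries were the highest pair, but C24 replicate 1 came within 10 normalized reads of the lower of them, and the C24 libraries differed most from each other. The log2 fold change of MS177 against DMSO was 1.28 with a wide interval of 0.48 to 2.08 (limma adjusted p = 0.00846). This call was lost without MS177 replicate 2 (adjusted p = 0.0515) or without DMSO replicate 2 (0.0622), and over all 16 alternatives the adjusted p lay between 0.00553 and 0.0622.

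**Figure D2:**
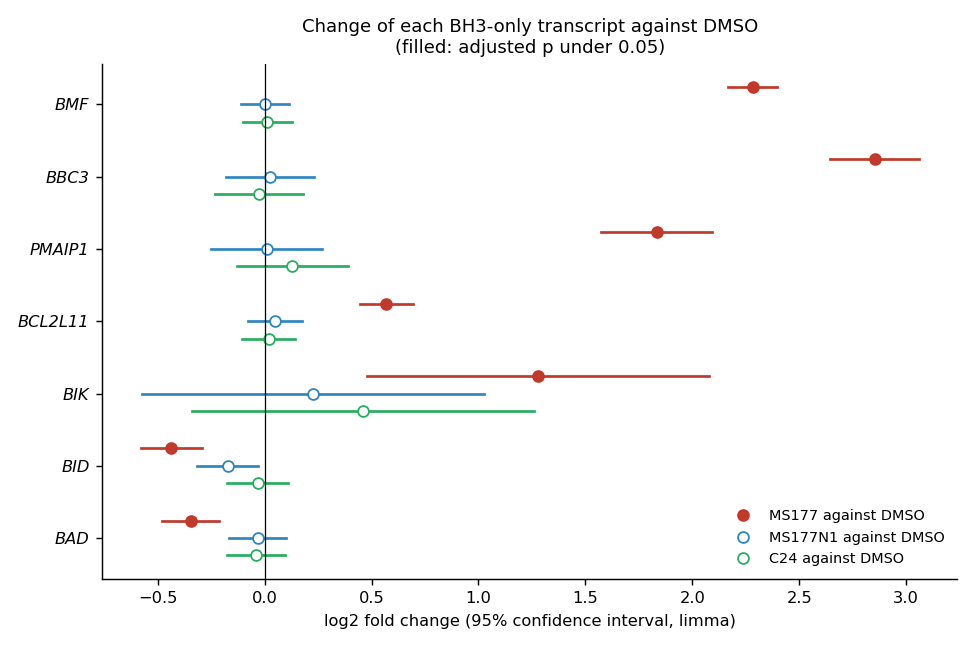
Log2 fold change against DMSO (x axis) of each BH3-only transcript with MS177 (red), MS177N1 (blue) and C24 (green); lines are 95% confidence intervals from limma and filled points have an adjusted p under 0.05. All 7 red points are filled, and every blue and green interval but that of BID with MS177N1 includes 0.

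The 95% intervals of the MS177 changes separated the members into tiers. BBC3 (2.65 to 3.06 on the log2 scale) lay above BMF (2.17 to 2.39), which lay above PMAIP1 (1.57 to 2.09), and BCL2L11 (0.45 to 0.69) lay above 0 and under these 3. The interval of BIK overlapped those of PMAIP1 and BCL2L11. BID (-0.58 to -0.29) and BAD (-0.48 to -0.21) overlapped each other. These are intervals of each gene's own change and no test of one gene against another was made.

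The sequences below show the promoter windows of the 4 members that rose from well-measured levels, so that known control elements can be located in them. They are RefSeq windows of 300 bases (GRCh38.p14), from 250 bases before the annotated start to 50 after, read 5′ to 3′ along the gene. Capitals mark matches on either strand to any of 5 motifs: FOXO (GTAAACA), CRE (TGACGTCA), the CRE half-site (TGACG, which lies within CRE), the C/EBP-ATF composite (TGATGNAA) and the MYC E-box (CACGTG).
BMF (chr15:40108830-40109129, minus strand): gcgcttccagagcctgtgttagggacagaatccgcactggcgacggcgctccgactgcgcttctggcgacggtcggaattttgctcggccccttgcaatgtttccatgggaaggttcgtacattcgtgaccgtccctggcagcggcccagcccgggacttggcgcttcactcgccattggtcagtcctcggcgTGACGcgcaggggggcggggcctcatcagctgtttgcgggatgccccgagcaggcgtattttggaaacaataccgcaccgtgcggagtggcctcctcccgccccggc
BBC3 (chr19:47232618-47232917, minus strand): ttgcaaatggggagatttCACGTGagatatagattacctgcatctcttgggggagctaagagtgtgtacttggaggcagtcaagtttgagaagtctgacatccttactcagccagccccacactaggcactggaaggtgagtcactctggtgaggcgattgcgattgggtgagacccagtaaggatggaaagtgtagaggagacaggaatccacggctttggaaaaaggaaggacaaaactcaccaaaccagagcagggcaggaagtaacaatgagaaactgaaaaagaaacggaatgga
PMAIP1 (chr18:59899746-59900045, plus strand): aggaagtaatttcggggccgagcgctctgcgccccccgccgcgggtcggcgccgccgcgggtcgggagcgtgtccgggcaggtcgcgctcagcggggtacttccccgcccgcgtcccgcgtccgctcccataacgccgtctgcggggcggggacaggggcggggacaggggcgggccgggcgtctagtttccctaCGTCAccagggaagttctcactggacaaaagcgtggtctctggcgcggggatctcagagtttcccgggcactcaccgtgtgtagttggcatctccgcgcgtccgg
BCL2L11 (chr2:111120664-111120963, plus strand): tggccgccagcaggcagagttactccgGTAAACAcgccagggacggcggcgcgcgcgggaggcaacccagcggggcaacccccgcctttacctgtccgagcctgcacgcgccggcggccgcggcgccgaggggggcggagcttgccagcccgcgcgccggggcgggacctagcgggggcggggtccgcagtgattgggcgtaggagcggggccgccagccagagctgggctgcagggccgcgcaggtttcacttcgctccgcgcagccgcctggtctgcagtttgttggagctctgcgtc

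BCL2L11 held the FOXO motif from 223 to 217 bases before its start, which 3.42% of all 35114 windows hold. BMF, in 1 of its 2 windows, and PMAIP1 each held a CRE half-site, from 57 to 53 and from 55 to 51 bases before the start, on opposite strands; 24.6% of windows hold one. BAD, which fell, held the half-site in both of its windows, which overlap and hold the same site. It lay from 54 to 50 bases before one start and from 93 to 89 before the other. The BBC3 window held a MYC E-box from 232 to 227 bases before the start (7.26% of windows). So did 2 of the 5 BID windows, which overlap and hold the same site, 106 to 101 and 47 to 42 bases before their starts. None of the windows of the 6 members in the table held the full CRE (1.85% of windows) or the C/EBP-ATF composite (3.62%), which says only that these letters are not in these windows. The windows also differed in base composition: BBC3 had 5 CpG and 48.0% GC, against 31 CpG and 65.0% GC in the BMF window shown, 42 and 71.3% in PMAIP1 and 39 and 74.7% in BCL2L11, where the median of all windows was 14 CpG and 58.7% GC. The BBC3 window was not alone in this: the BMF window not shown had 1 CpG and 50.3% GC, and 1 of the 5 BID windows had 6 CpG and 48.7% GC.

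The 3 compounds were compared with one another at the same dose and time, and each adjusted p is over all genes tested. In MS177 against MS177N1, 5 members were higher and 2 lower, where 28.8% of all genes were called higher and 28.6% lower. In MS177 against C24, 4 were higher, 2 lower and 1, BIK, was not called, where 29.1% of all genes were called higher and 29.0% lower. BBC3 was 7.09-fold higher with MS177 than with MS177N1 (95% interval 6.15 to 8.17) and 7.35-fold higher than with C24 (6.38 to 8.48). BMF was 4.86-fold higher with MS177 than with MS177N1 (4.49 to 5.25) and 4.82-fold higher than with C24 (4.46 to 5.21). For PMAIP1 these were 3.54-fold (2.96 to 4.24) and 3.26-fold (2.72 to 3.91), and for BCL2L11 1.44-fold (1.32 to 1.56) and 1.47-fold (1.34 to 1.60). These comparisons share the MS177 libraries, so their values are not independent of one another. The limma adjusted p of these 8 values lay between 2.48e-14 and 1.50e-06.

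The members that fell were also lower against the other compounds. BAD was at a log2 fold change of -0.31 (SE 0.06) against MS177N1 and -0.31 (SE 0.06) against C24 (limma adjusted p = 0.000504 and 0.000601). BID was at -0.26 (SE 0.07) against MS177N1 and -0.40 (SE 0.07) against C24 (limma adjusted p = 0.00315 and 8.44e-05). Without MS177N1 replicate 1, the BID call against MS177N1 was lost, at -0.205 and an adjusted p of 0.0631 (0.00236 to 0.0631 over the alternatives). BIK was at 1.05 (SE 0.38, limma adjusted p = 0.0259) against MS177N1 and 0.82 (SE 0.38, limma adjusted p = 0.0745) against C24. Leaving out any 1 of the 4 MS177 and MS177N1 libraries ended the BIK call against MS177N1 (adjusted p = 0.0506 without MS177 replicate 1, 0.117 without MS177 replicate 2, 0.0705 without MS177N1 replicate 1 and 0.107 without MS177N1 replicate 2). Leaving out C24 replicate 1 brought the value against C24 past the threshold, at 1.24 (adjusted p = 0.0315).

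MS177N1 and C24 gave no call on any of the 7 transcripts. For MS177N1 against DMSO limma called 0.0353% of all genes in either direction, 0 of the 7 members were called, and 1 had an unadjusted p under 0.05. For C24 against DMSO 0.0918% of all genes and 0 members were called, with 0 members at an unadjusted p under 0.05. For MS177N1 against C24 these were 0.0141%, 0 and 0. Among the 14164 genes tested, 718, 762 and 634 had an unadjusted limma p under 0.05 in the 3 comparisons, in that order. The smallest adjusted p over the 7 members was 0.965, 0.935 and 0.997 in these 3 comparisons. The intervals show how large a change could have gone uncalled: 0.926-fold to 1.08-fold for BMF with MS177N1 and 0.934-fold to 1.09-fold with C24, and 0.883-fold to 1.17-fold for BBC3 with MS177N1 and 0.851-fold to 1.13-fold with C24. For PMAIP1 they were 0.841-fold to 1.21-fold with MS177N1 and 0.913-fold to 1.31-fold with C24, and for BIK 0.673-fold to 2.04-fold and 0.789-fold to 2.39-fold. The interval of BMF between MS177N1 and C24 was 0.917-fold to 1.07-fold. These values bound the differences and do not show that the compounds act alike.

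For all 7 members the 2 MS177 libraries lay outside the range of the other 6. Among all genes tested, both MS177 libraries lay above the other 6 in 33.2% and below them in 31.7%. The coefficient of variation over the 6 libraries without MS177 was 1.95% for BCL2L11, 1.98% for BMF, 2.60% for BAD, 5.46% for BBC3, 6.43% for BID, 8.50% for PMAIP1 and 29.5% for BIK. These 6 libraries are of 3 groups, so the values hold differences between groups as well as between replicates. The order of the values follows the number of reads only in part. BID, with a median of 1526 normalized reads in those libraries, varied more than BBC3 with 342. For BID the MS177N1 libraries (1461 and 1347) lay below those of C24 (1587 and 1505) and DMSO (1548 and 1614). For BCL2L11 they (2779 and 2691) lay above those of C24 (2686 and 2670) and DMSO (2620 and 2668). The share of all genes with such separations was not counted.

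Levels of different genes can be compared only per length, here as normalized reads per kilobase of merged GENCODE exons. With MS177 the order was BMF (1781 ± 48.9 reads per kilobase, SD, n = 2), BAD (849 ± 45.2), BBC3 (769 ± 50.8), BCL2L11 (590 ± 47.2), PMAIP1 (331 ± 4.62), BID (263 ± 4.29) and BIK (51.1 ± 5.47). With DMSO it was BAD (1079 ± 37.2), BCL2L11 (397 ± 5.14), BMF (366 ± 6.35), BID (356 ± 10.6), BBC3 (106 ± 9.24), PMAIP1 (92.6 ± 6.25) and BIK (20.7 ± 5.02). The DMSO libraries of BMF (361 and 370) and BID (348 and 363) overlapped, so these neighbours cannot be ordered, and BAD stood well above the rest. BMF made up 37.7% and 39.2% of the members' summed reads per kilobase in the MS177 libraries, against 14.8% and 15.5% in the DMSO libraries. BBC3 made up 17.4% and 15.8% with MS177 and 4.62% and 4.17% with DMSO. BAD had 881 and 817 reads per kilobase with MS177 and 1105 and 1053 with DMSO, where it was the largest part of the sum in both libraries (45.3% and 44.0%). The exon lengths are those of the annotation, not of the transcripts these cells make, so the order depends on them.

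**Figure D3:**
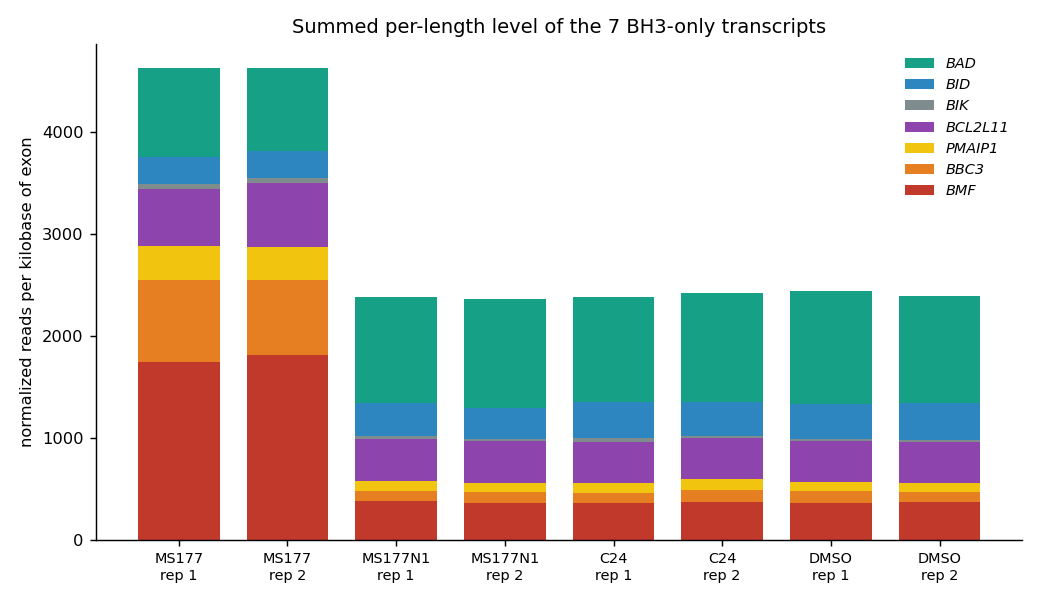
Normalized reads per kilobase of merged exons (y axis) of the 7 BH3-only transcripts, stacked for each of the 8 libraries. The sum was 4636 and 4632 in the MS177 libraries and 2442 and 2392 in the DMSO libraries, and BMF took the place of BAD as the largest share with MS177.

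Of 4 guardians that were tested, 2 rose with MS177, 0 fell and 2 were not called, with a median log2 fold change of 0.83 (0.00 over all genes tested). MCL1, the guardian bound by NOXA and BIM, had 18531 and 19258 normalized reads with MS177 and 10074 and 10269 with DMSO (log2 fold change 0.89, SE 0.04, limma adjusted p = 9.91e-11). BCL2 had 4795 and 5133 with MS177 and 2901 and 2943 with DMSO (0.76, SE 0.05, limma adjusted p = 5.53e-09). BCL2L1, which encodes BCL-XL, had 8869 and 8648 with MS177 and 9196 and 8870 with DMSO (-0.04, SE 0.04, limma adjusted p = 0.392), and its sign turned under total-read scaling. BCL2L2, or BCL-W, had 10.7 and 13.1 with MS177 and 4.40 and 2.88 with DMSO (limma adjusted p = 0.0573; 0.0462 under total-read scaling and 0.0435 with no filter). BCL2L2 is uncertain because of a read-through gene with its neighbour. BCL2A1, the guardian BFL1, had at most 4 reads in any library and was not tested.

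The summed reads per kilobase of the 7 members were 0.633 and 0.621 times those of the 5 listed guardians in the MS177 libraries, 0.441 and 0.436 with MS177N1, 0.456 and 0.455 with C24, and 0.458 and 0.453 with DMSO. The ratio describes RNA and not protein, and no test was made on it. Of the effectors, BAX had 2422 and 2026 normalized reads with MS177 and 2113 and 2022 with DMSO (log2 fold change 0.10, SE 0.07, limma adjusted p = 0.259), and BAK1 had 2205 and 2131 with MS177 and 2067 and 2167 with DMSO (0.03, SE 0.06, limma adjusted p = 0.624). BAX passed the threshold under total-read scaling (adjusted p = 0.0402) and without MS177 replicate 2 (0.00517). Its value against DMSO turned negative without MS177 replicate 1. Against MS177N1, BAX was called higher with MS177 (0.19, SE 0.07, limma adjusted p = 0.0396). Against C24 it was not called (0.16, SE 0.07, limma adjusted p = 0.0789).

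Of 5 tested genes that some definitions also count as BH3-only, 2 rose with MS177, 0 fell and 3 were not called, with a median log2 fold change of 0.27. BNIP3L, the mitophagy receptor NIX, rose (0.73, SE 0.09, limma adjusted p = 2.81e-06). MOAP1, a BAX-binding protein, was at 0.27 (SE 0.11, limma adjusted p = 0.0480), a call that was lost under 11 of 16 alternatives. BECN1, or Beclin 1, was at 0.10 (limma adjusted p = 0.248) and passed the threshold under total-read scaling (0.0379). HRK, a neuronal sensitizer, had 42.9 and 20.6 normalized reads with MS177 and 20.9 and 19.2 with DMSO (limma adjusted p = 0.283). BNIP3 had 18.2 and 2.81 with MS177 and 13.2 and 21.2 with DMSO (limma adjusted p = 0.187). It was called as lower without MS177 replicate 1 (adjusted p = 0.00667), and its sign turned without MS177 replicate 2.

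The counts of the pathway lists stand beside 28.9% of all genes called higher and 29.0% called lower in MS177 against DMSO. Of 9 apoptosome and caspase genes, 4 rose, 3 fell and 2 were not called with MS177 (median log2 fold change -0.04, and 0.04 under total-read scaling), 2 rose and 3 fell without DMSO replicate 1, and the median was 0.04 without MS177 replicate 1. CYCS, which encodes cytochrome c, had 5049 and 5188 normalized reads with MS177 and 9027 and 8302 with DMSO. The executioner caspase CASP6 had 243 and 279 with MS177 and 475 and 434 with DMSO. CASP10, an initiator caspase related to the BID-cleaving CASP8, had 3388 and 3904 with MS177 and 2305 and 2578 with DMSO. On the log2 scale CYCS was at -0.76 (limma adjusted p = 4.77e-09), CASP6 at -0.80 (limma adjusted p = 1.08e-05) and CASP10 at 0.58 (limma adjusted p = 2.49e-05). Of 6 inhibitors of apoptosis and their antagonists, 4 rose, 1 fell and 1 was not called (median 0.23), and 2 rose and 1 fell with only the 2 groups compared in the fit. BIRC2 and BIRC3, which encode cIAP1 and cIAP2, rose by 0.84 (SE 0.09) and 0.80 (SE 0.07). BIRC5, or survivin, fell by 0.57 (SE 0.05), and DIABLO, the IAP antagonist SMAC, was at 0.21 (limma adjusted p = 0.0616; 0.0122 under total-read scaling). XIAP (0.24, SE 0.08, limma adjusted p = 0.0213) and the protease HTRA2 (0.22, SE 0.08, limma adjusted p = 0.0364) lost their calls under 3 and 7 of 16 alternatives.

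**Figure D4:**
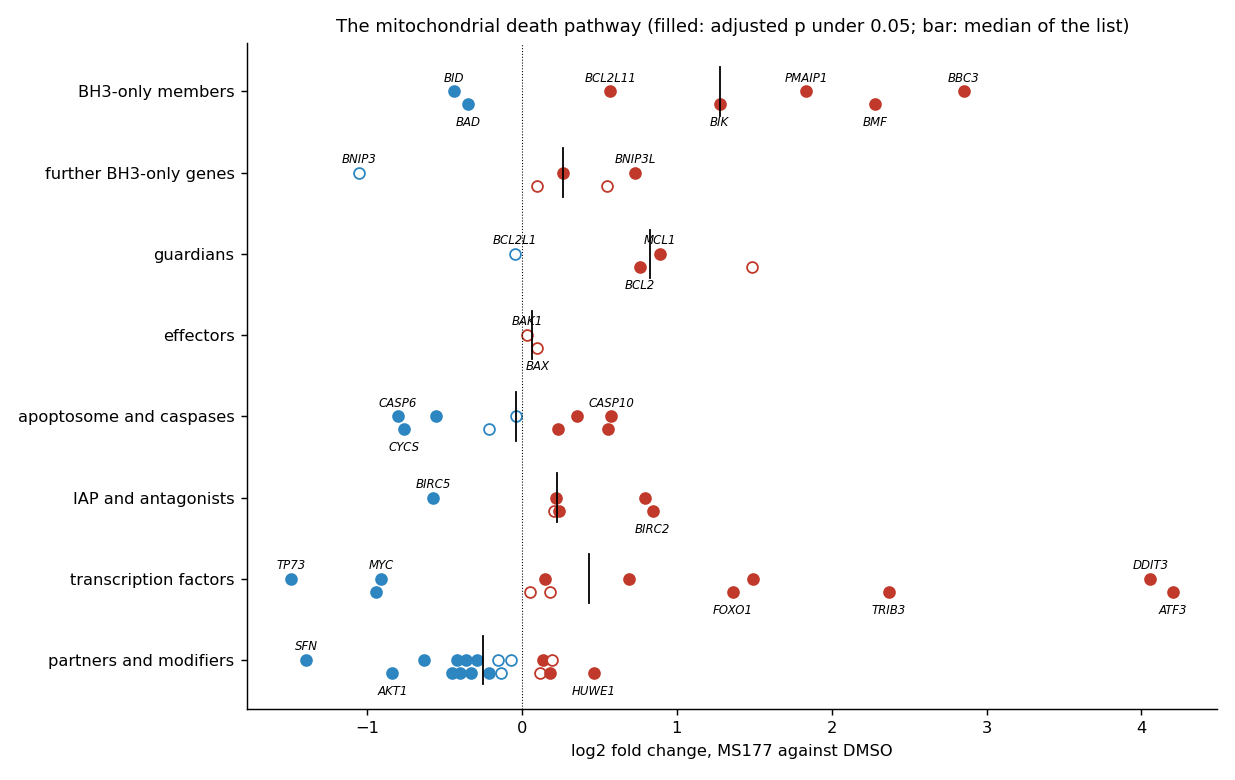
Log2 fold change of MS177 against DMSO (x axis) of the genes of each list (rows); filled points have a limma adjusted p under 0.05, colour gives the sign, and vertical bars are list medians. The BH3-only members span -0.44 to 2.85 and the 2 effectors stay near 0, while the transcription factors reach 4.21.

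Of 12 transcription factors known to act on BH3-only genes, 7 rose, 3 fell and 2 were not called with MS177, with a median log2 fold change of 0.44. The 3 largest changes among those called were in ATF3, DDIT3 and TRIB3. ATF3 had 12976 and 12536 normalized reads with MS177 and 701 and 680 with DMSO, and DDIT3, which encodes CHOP, had 2950 and 2702 with MS177 and 166 and 171 with DMSO. TRIB3, a pseudokinase gene induced by ATF4 and CHOP, was carried on this list and had 8480 and 8178 with MS177 and 1640 and 1582 with DMSO. These 3 changes, 4.21 for ATF3, 4.06 for DDIT3 and 2.37 for TRIB3 on the log2 scale, had limma adjusted p between 1.14e-15 and 2.15e-13. Further genes were picked out after their values were seen. FOXO1 and FOXO3, known activators of BCL2L11, BBC3 and BMF, rose by 1.36 (SE 0.12) and 0.69 (SE 0.04), while FOXO4 was not called (0.05, SE 0.10, limma adjusted p = 0.687). ATF4 rose by 1.49 (SE 0.07, limma adjusted p = 4.87e-10). ATF5 was not called (0.18, SE 0.09, limma adjusted p = 0.0997) and passed the threshold under total-read scaling (0.0201). The 3 that fell were TP73 (-1.49, SE 0.09), E2F1 (-0.94, SE 0.07) and MYC (-0.91, SE 0.05).

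Of 18 genes for proteins that bind or modify BH3-only proteins, 10 fell with MS177, 3 rose (1 without DMSO replicate 1) and 5 were not called, with a median log2 fold change of -0.25 against 0.00 over all genes. The largest falls were SFN, a 14-3-3 protein (-1.39, limma adjusted p = 0.000409), AKT1, a kinase that phosphorylates BAD (-0.84, limma adjusted p = 9.11e-09), and PIM1, another BAD kinase (-0.63, limma adjusted p = 4.35e-08). SFN had few reads, at 66.4 and 32.7 normalized reads with MS177 and 139 and 112 with DMSO. Its value lay between -1.89 and -0.894 with a library left out. On the deposited values it was -0.672, a smaller fall than that of AKT1 under any of the 16 alternatives (-0.87 to -0.751). AKT1 had 1107 and 1101 normalized reads with MS177 and 2019 and 1924 with DMSO. Of the dynein light chains, DYNLL2, which binds BMF, fell (-0.45, SE 0.05, limma adjusted p = 2.01e-06), and DYNLL1, which binds BIM, was not called (0.11, SE 0.06, limma adjusted p = 0.142; 0.0136 under total-read scaling and 0.0128 without MS177 replicate 2). The 3 that rose were HUWE1, a ubiquitin ligase of MCL1 (0.47, SE 0.06), RPS6KA1, which encodes the kinase RSK1 (0.18, SE 0.05), and YWHAZ, a 14-3-3 protein (0.14, SE 0.06). RPS6KA1 lost its call without DMSO replicate 1, and YWHAZ lost its call under 9 of 16 alternatives. The dynein genes and these 3 were picked out after their values were seen. No gene of the 7 pathway lists was called in MS177N1 or C24 against DMSO, or in MS177N1 against C24.

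The genes whose profiles over the 8 libraries were most like those of the members were found by the root-mean-square distance between mean-centred log2(normalized reads + 1) values. Nearest to BBC3 were JUN (0.08), SLC6A9 (0.09) and CHAC1 (0.10), and nearest to BMF were KLF6 (0.07), SEPP1 (0.07) and TGFA (0.08). Nearest to PMAIP1 were PER1 (0.08), SMOX (0.09) and SH3BP5 (0.09). BCL2L11 was nearest to STRBP, ZKSCAN8 and SERINC3 (each 0.03), BID to HAT1 (0.03), PTTG1 (0.03) and PDE6D (0.04), and BAD to CORO1A (0.02), LRRC59 (0.02) and KIFC1 (0.03). BIK had no gene nearer than LPHN2 (0.17). Among the members themselves, BID and BAD were the closest pair (0.09), and BMF was nearer to PMAIP1 (0.23) and BBC3 (0.26) than BBC3 was to PMAIP1 (0.47). All 8 libraries share the split between MS177 and the rest, so these distances rest mainly on the size of the MS177 difference.

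Markers of other cell types were at low levels next to the plasma-cell markers, and some moved with MS177. The 5 listed of 7 monocyte and granulocyte markers summed to 1552 to 1671 normalized reads with MS177, 296 to 325 with MS177N1, 337 to 341 with C24 and 293 to 368 with DMSO. Most of this was CD68, a lysosomal protein gene, at 1585 and 1471 with MS177 and 282 and 356 with DMSO. CD163 had 24.6 and 24.3 with MS177 and 0 and 0.961 with DMSO, and AIF1 had 51.4 and 42.1 with MS177 and 3.30 and 0 with DMSO. All 3 of these were called higher with MS177, where 28.9% of all genes were called higher. CD163 was at 0 in every MS177N1 and C24 library and AIF1 in both C24 libraries. The CD163 call was lost without MS177 replicate 1 and without MS177 replicate 2. The log2 fold change of CD163 was 4.19 in the main fit and 0.799 on the deposited values. The defining marker CD14 had 9.64 and 10.3 with MS177 and 7.70 and 9.61 with DMSO, and CSF1R had 0 and 3.74 with MS177 and 0 and 1.92 with DMSO.

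The 3 listed of 6 T and NK cell markers summed to 394 to 430 normalized reads with MS177, 214 to 217 with MS177N1, 201 to 267 with C24 and 200 to 217 with DMSO. Most of this was NCAM1, called higher at 358 and 397 with MS177 and 140 and 138 with DMSO. CD3E was called lower, at 33.2 and 29.9 with MS177 and 75.9 and 61.5 with DMSO, and CD8A was not tested. Of 5 markers of B cells before the plasma stage, 1 was listed, BCL6, at 47.2 and 56.1 with MS177, 16.8 and 13.6 with MS177N1, 24.0 and 29.9 with C24 and 15.4 and 10.6 with DMSO, and it was called higher with MS177. The 5 stromal and epithelial markers summed to 90.7 to 108 with MS177, 96.5 to 112 with MS177N1, 102 to 116 with C24 and 61.6 to 79.8 with DMSO, so the MS177 sums lay no higher than those of the other compounds. COL1A1 was called higher with MS177, PDGFRB, EPCAM and KRT18 were not called, and COL1A2 was at 0 in all MS177N1 and DMSO libraries. Of the plasma-cell markers, 8 of 10 were called lower with MS177, where 29.0% of all genes were called lower. The largest falls were IGJ (-1.22), SDC1 (-1.21) and TNFRSF17 (-1.04 on the log2 scale). The smallest of the 8 were SLAMF7 (-0.20), PRDM1 (-0.26) and IRF4 (-0.26), and CD38 was not called. XBP1 was called higher (0.11, limma adjusted p = 0.0183), a call lost under 3 of 16 alternatives. The part of these differences in the BH3-only values was not tested, and fewer cells of a type and less RNA per cell cannot be told apart in bulk libraries.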

How the data were processed

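RNA was sequenced in 8 libraries of MM1.S cells. The authors deposited 1 normalized log2 value per gene and library, as the file headers and the values show. Per the submitters' processing notes, the build was hg19 and the tools DESeq2 1.38.2, Salmon 0.1.19 and STAR 2.4.2; their roles are not given in the sources used here. The values follow a variance-stabilizing transformation, with a shared minimum of 5.967655733 for 0 reads, and this was inverted. All 130360 of 130360 values gave whole numbers within 0.01, called reads here, and the size factors equalled median-of-ratios factors computed from them. Estimates rounded before normalization would also give whole numbers, so these reads may be rounded estimates.

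The filter kept 14164 genes and left out 2131: a gene needed 15 reads in total, and 2 libraries with the equivalent of 10 reads in a library of median size. Log2(normalized reads + 1) was fitted with limma 3.58.1 (trend and robust, statmod 1.5.0) in R 4.3.3, all 4 groups in 1 fit, with 6 comparisons and Benjamini-Hochberg adjustment over all genes tested. The threshold for a call was an adjusted p of 0.05. Fold changes are on the log2(value + 1) scale and understate those of genes with few reads. All members were named. Pathway lists of 7 or fewer were named in full (BCL2L10, BCL2L14 and BOK were not analysed here), longer ones by the 3 called genes with the largest change. Marker lists had no such rule, and the markers named were chosen after their values were seen. The members and lists were chosen with earlier results of these data known. Exon lengths and overlaps came from GENCODE release 29 (GRCh38), matched by symbol, and promoters from RefSeq (GRCh38.p14), which held 6 of the 7 members (not BIK). One gene of the transcription factor list, counted in that list's totals, is not reported here by name.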

Additional observations from a re-analysis of the deposited data

How the results depend on the processing

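Each of the 42 member values (7 genes in 6 comparisons) was recomputed under 16 alternatives: total-read or upper-quartile scaling, no filter, a pseudocount of 0.5, the deposited log2 values, voom weights, only the groups compared, a replicate block, and leaving out each library. The number of members called in each comparison stayed within 1.5 times under all of them, and BMF, BBC3, PMAIP1, BCL2L11 and BAD kept their direction and calls in the 3 comparisons of MS177. On the deposited scale BIK was at 0.437 in place of 1.28 for MS177 against DMSO.

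No comparison without MS177 had a called member, and there 21 of the values turned sign, all from an absolute log2 fold change of 0.231 or less. With single libraries left out, values of MS177N1 against DMSO ranged from -0.0338 to 0.0374 for BMF, -0.0617 to 0.115 for BBC3, -0.0592 to 0.0778 for PMAIP1, -0.0675 to 0.00275 for BAD and -0.00975 to 0.466 for BIK. BMF was at -0.000139 with voom weights. C24 against DMSO ranged from -0.0050 to 0.0322 for BMF, -0.115 to 0.0621 for BBC3, -0.00916 to 0.266 for PMAIP1 and -0.0703 to 0.00572 for BID. MS177N1 against C24 ranged from -0.0474 to 0.0239 for BMF, -0.0193 to 0.126 for BBC3, -0.257 to 0.0185 for PMAIP1, -0.0199 to 0.0342 for BAD and -0.658 to 0.196 for BIK.

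Counts over all genes moved by over 1.5 times only in comparisons without MS177. MS177N1 against DMSO had 5 calls, and 3 with total-read scaling, 8 with voom weights or the deposited values, 17 with only the groups compared, 11 with the replicate block and 0 to 19 with a library left out. C24 against DMSO had 13, and 20 with the replicate block and 10 to 28 with a library left out. MS177N1 against C24 had 2, and 28 with only the groups compared and 0 to 13 with a library left out. Total-read scaling moved the split of MS177 against DMSO from 4097 higher and 4110 lower to 4761 and 3443, and the median of all genes to 0.0877. Replicate numbers were not shown to pair the libraries, since a group has only 2: the correlation of same-numbered deviations lay between -0.0621 and 0.0602 over all genes tested and between -0.0694 and 0.321 over the 10251 genes with a mean of at least 100 reads, highest for MS177 with DMSO and followed by 0.243 for MS177N1 with C24. The replicate block changed no member's call.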
